A study of Homo sapiens with 21 samples.

Results

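HepG2S3 is a subline of HepG2, an established human liver cancer cell line, that was made resistant to sorafenib by growing the cells for months in rising doses of the drug. Sorafenib is a kinase inhibitor used in liver cancer, and its targets include the VEGF and PDGF receptors and the Raf kinases. Of the 21 RNA sequencing libraries of the series, the 4 labelled HepG2A, HepG2B, HepG2S3A and HepG2S3B were compared, 2 for each cell line, and described across their genes. The first pair carries the label sensitive with no drug, and the second pair carries the label resistant with sorafenib. A second sorafenib-resistant subline, HepG2S1, had 1 library, and its values are given where useful with no test.

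The study set parental cell lines of several cancers beside their treatment-resistant derivatives to ask whether epigenetic changes, such as those of DNA methylation, lie behind resistance, and the RNA libraries described here give the gene expression side of it. HepG2 and its sublines were grown in William's E medium with serum. Whether sorafenib was in the medium at harvest is not stated in the sources used here, so effects of the drug itself and of lasting resistance cannot be told apart. Nothing in these sources says whether HepG2S3 is a clone, or whether the A and B libraries come from separate cultures.

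Hepatocytes are the main cell type of the liver. They secrete most proteins of the blood plasma, assemble lipoproteins, break down amino acids and drugs, and store and release glucose. A network of transcription factors, with HNF4A, the FOXA proteins and the nuclear receptor NR1H4 among them, keeps these genes active, and HepG2 cells retain much of this programme in culture. Genes of this kind, of other cell lineages, and of the pathways that sorafenib acts on were grouped in 44 lists of 1044 genes, which fall into 6 families.

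The 4 libraries held between 30639282 and 36639473 counts on genes, and the HepG2S1 library 9851195. Levels are given as CPM, a gene's count in every 1000000 counts that its library held on genes. On this scale 3 counts over both libraries of a line correspond to 0.042 CPM in HepG2 and 0.0479 CPM in HepG2S3. Libraries of the same line differed by more than sampling noise, since a chi-square test of their counts gave 98.6 (HepG2) and 14.3 (HepG2S3) for each degree of freedom. The SD of the log2 difference between A and B was 0.63 in HepG2 and 0.35 in HepG2S3, so the HepG2 pair was the less alike. In a check for mixed-up samples, 2 of the 4 libraries did not match the other 2, and the mismatch ran between the lines and not within one. The counts hold no genotype, so whether HepG2S3 descends from HepG2 was not tested, and each difference given here may be one between cell lines of different origin as well as one of resistance, which cannot be told apart.

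In the quasi-likelihood test of edgeR, 10744 of the 16929 genes tested differed between HepG2S3 and HepG2 at a Benjamini-Hochberg adjusted p under 0.05 (63.5%), and such genes are named called here. Higher in HepG2S3 were 5308 genes (31.4%), and lower were 5436 (32.1%). Differences are given as log2 fold changes of HepG2S3 over HepG2 with the standard error of the fit, and they were large for many genes. Of the calls, 882 were at a log2 fold change of 5 or more and 1116 at -5 or less. Of the genes tested, 311 had no count in either HepG2 library and passed 3 counts in HepG2S3, and 289 showed the opposite. These counts overlap with those of the large changes, since ACKR3, for example, is in both. The split of calls depends on the scaling, since 49.4% of calls were higher in HepG2S3 with the TMM factors used throughout and 61.1% when libraries were scaled to their total count, which raises the median log2 fold change of all genes by 0.31. The list families departed from this background to different extents, and counts of a family or list are to be read against the shares of all genes. Genes of stress, growth and immunity lay near it, with 32.8% called higher and 38.9% lower. Among liver identity genes, 13 of 169 tested were called higher and 142 lower, with a median log2 fold change of -6.83 against -0.01 for all genes. Among genes of other lineages 52 of 86 were called higher and 27 lower, with a median of 2.68. Of these 86, 19 had no count in 1 of the lines and passed the filter on low counts through the other, so their direction was fixed by it. Genes of the cell surface, matrix and cytoskeleton were split into 51 higher and 51 lower of 126 (median 0.00). Signalling and drug response genes had 56 higher and 105 lower of 200 (median -0.68), metabolic genes 33 higher and 66 lower of 136 (median -0.57), and genes of stress, growth and immunity 59 higher and 70 lower of 180 (median 0.05). Genes without enough counts in either line were not tested and are given as such.

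**Figure D1:**
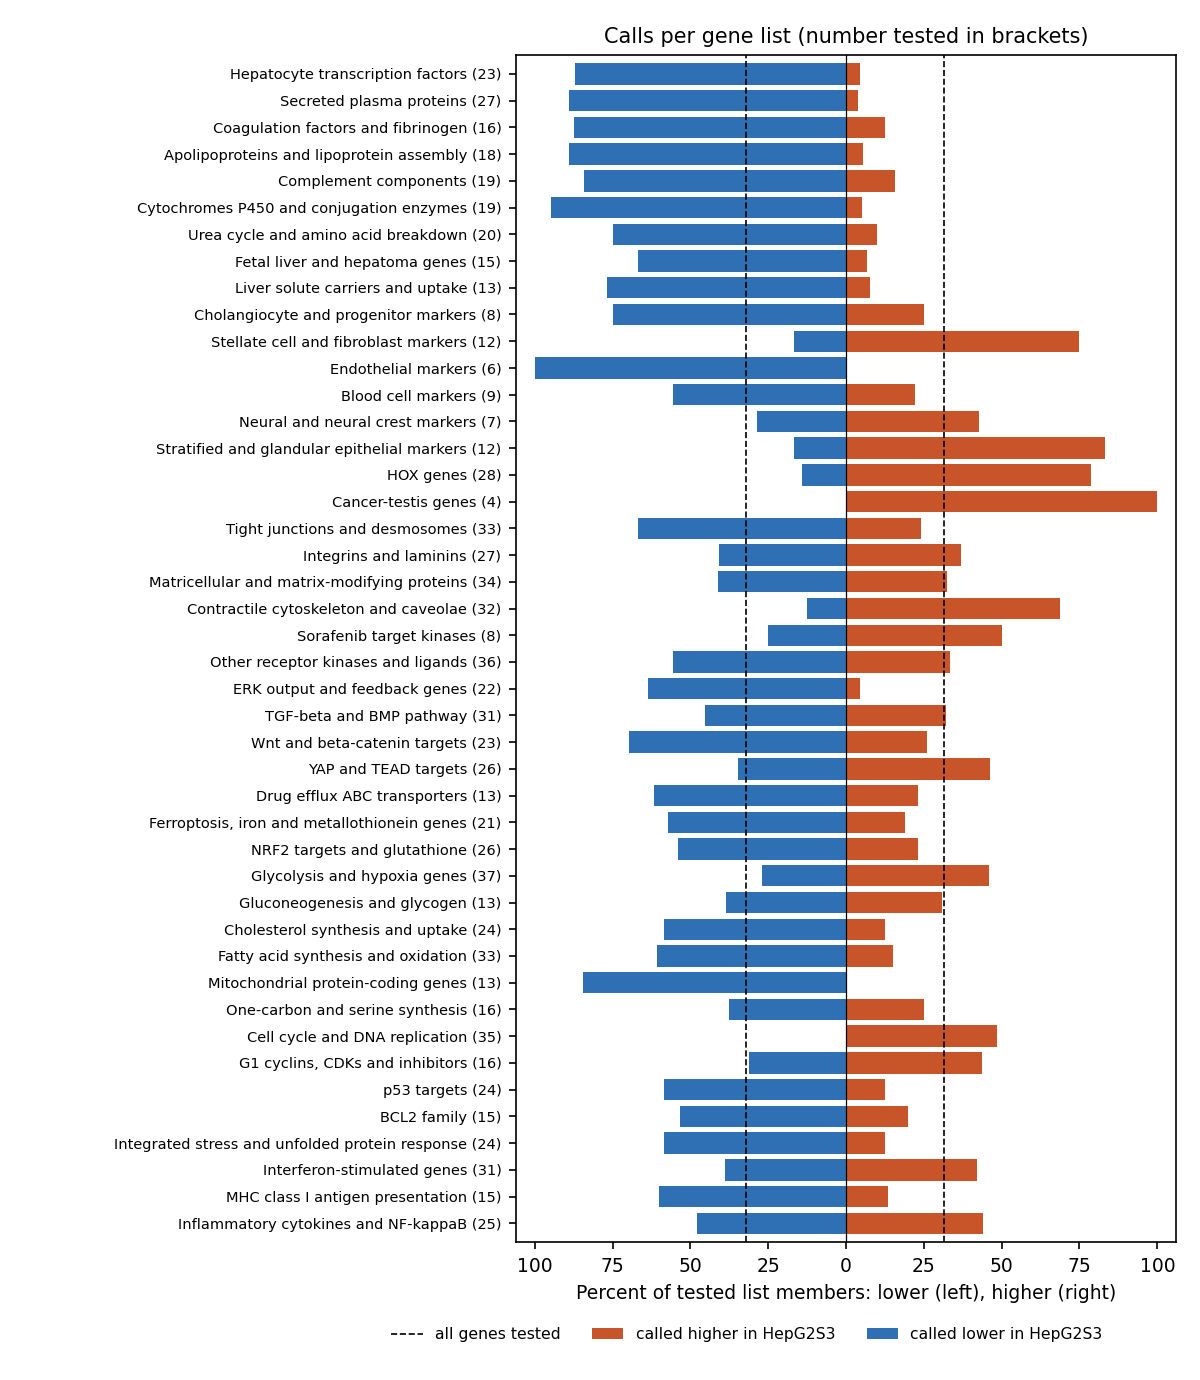
Percent of tested members of each of the 44 gene lists that were called higher (right) or lower (left) in HepG2S3 than in HepG2, with the number tested in brackets and dashed lines at the 31.4% and 32.1% of all genes tested. The bars of the liver lists at the top reach mostly to the left, while those of the HOX, cancer-testis, stellate cell and stratified epithelial lists reach mostly to the right, the cancer-testis bar for 4 genes that passed the filter through HepG2S3.

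Liver transcription factors were lower in HepG2S3. Of the 23 tested, 20 were called lower, 1 higher (ONECUT2) and 2 were not called (NR5A2 and PPARA), with a median log2 fold change of -3.81. HNF4A, the nuclear receptor at the centre of the hepatocyte programme, was at 226 and 211 CPM in HepG2 and at 0.437 and 0.424 CPM in HepG2S3 (-9.29 ± 0.19, edgeR adjusted p = 2.59e-05). GATA4, which acts in early liver development, had 49.7 and 42.6 CPM in HepG2 and 0.0312 and 0.0326 CPM in HepG2S3, a single count in each library. FOXA2, a pioneer factor that opens liver enhancers, had 42.8 and 37.6 CPM in HepG2 and 0.0625 and 0 CPM in HepG2S3. GATA4 and FOXA2 thus lay at or under the level of 3 counts in HepG2S3, and HNF4A above it. FOXA1, of the same family, kept a low level, at 99.7 and 82.5 CPM in HepG2 and 7.87 and 8.26 CPM in HepG2S3 (-3.81 ± 0.17). The bile acid receptor NR1H4 fell from 86.1 and 64.5 CPM to 0.0625 and 0.0653 CPM. PROX1, a regulator of hepatoblast growth, fell from 206 and 208 CPM to 0.187 and 0.196 CPM. In no library of HepG2S3 did one of these 6 named factors reach its HepG2 level.

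Secreted plasma proteins took 4.81% and 4.06% of the counts in the HepG2 libraries and 0.00477% and 0.00509% in HepG2S3. Of 27 tested, 24 were called lower and 1 higher (TTPA), with a median of -9.32. ALB, the gene of serum albumin, was at 16105 and 8261 CPM in HepG2 and at 7.44 and 10.9 CPM in HepG2S3 (-10.70 ± 0.59, edgeR adjusted p = 0.000116). SERPINA1, the gene of alpha-1 antitrypsin, was at 7603 and 10023 CPM against 3.25 and 7.7 CPM (-10.97 ± 0.61). TF, the iron carrier transferrin, was at 5583 and 4576 CPM against 2.34 and 4.96 CPM (-10.76 ± 0.52). For these 3 genes the log2 differences lay between -10.97 and -10.70. The libraries of the 2 lines did not overlap for them, which held for 85.5% of all genes tested. AFP, a fetal plasma protein and a marker of liver cancer, was at 5026 and 2184 CPM in HepG2 and 11.7 and 3.23 CPM in HepG2S3. Reads of ORM2 may be shared with its near-identical neighbour ORM1, and both were called lower. In bulk RNA, fewer cells of a type and less RNA per cell cannot be told apart.

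The traces of liver transcripts left in HepG2S3 were not the same in its 2 libraries. SERPINA3, an acute phase protein, had 3288 and 5769 CPM in HepG2, 0.0937 CPM in HepG2S3A and 3.92 CPM in HepG2S3B. SPP1, the gene of osteopontin, was at 2442 and 3120 CPM in HepG2, 0.0312 CPM in HepG2S3A and 4.24 CPM in HepG2S3B. APOH, a phospholipid-binding plasma protein, was at 1570 and 1137 CPM in HepG2, 0.0312 CPM in HepG2S3A and 1.11 CPM in HepG2S3B. For each of these the B library held the higher trace, while for AFP and the fibrinogen genes FGA, FGB and FGG it was the A library. Neither library was thus the higher throughout. The summed level of 6 hepatocyte markers (ALB, TTR, SERPINA1, TF, HNF4A and APOA1) was 30220 and 23665 CPM in HepG2, 14.1 and 24.4 CPM in HepG2S3 and 1.02 CPM in HepG2S1. All 6 were called lower, so the hepatocyte markers that define the labelled tissue were present in HepG2 and near 0 in HepG2S3. The source of the remaining traces was not tested.

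Clotting factors followed the plasma proteins. Of the 16 tested, 14 were called lower and 2 higher (F12 and PROS1), with a median of -8.59, or -8.44 when genes without a count in 1 line are set to their bound. The fibrinogen chains, which form the clot, were lower together. FGA was at 884 and 1470 CPM in HepG2 against 1.75 and 0.849 CPM in HepG2S3 (-10.12 ± 0.52). FGB was at 309 and 584 CPM against 3.19 and 0.457 CPM (-8.23 ± 0.93), and FGG at 958 and 1443 CPM against 1.66 and 1.31 CPM (-9.97 ± 0.35). F2, the gene of prothrombin, fell from 428 and 349 CPM to 0.187 and 0.261 CPM (-11.05 ± 0.27, edgeR adjusted p = 2.59e-05). F11, another clotting protease, had 16.5 and 20.3 CPM in HepG2 and no count in HepG2S3, which makes it at least 384-fold lower.

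Lipoprotein genes were lower as well, with 16 of 18 called lower and ANGPTL4 higher (median -8.93). APOB, the structural protein of very low density lipoprotein, was at 16340 and 9549.8 CPM in HepG2 and 5.78 and 12.7 CPM in HepG2S3 (-10.77 ± 0.68). APOA1, the main protein of high density lipoprotein, was at 641 and 546 CPM against 0.469 and 0.424 CPM (-10.68 ± 0.23). MTTP, which loads lipid onto apolipoprotein B, was at 27.2 and 17.9 CPM against 0.437 and 0.392 CPM (-6.07 ± 0.34). The carrier and its loading factor were thus both lower, by unequal amounts.

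Most complement genes were lower. Of 19 tested, 16 were called lower and 3 higher, with C1R and C1S, the proteases that start the classical pathway, among the latter (median -5.06). C5, a component of the membrane attack pathway, was at 572 and 777 CPM in HepG2 and 1.66 and 1.34 CPM in HepG2S3 (-9.12 ± 0.28). C3, the central component, remained abundant at 817 and 741 CPM in HepG2S3 after 5106 and 6772 CPM in HepG2 (-3.24 ± 0.23). C4A and C4B share reads and their split is uncertain, but both were called lower.

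Some genes of drug metabolism were low already in HepG2, and others were not. Of 33 listed, 13 did not reach the filter on low counts, 18 of the 19 tested were called lower and SLC27A5 was called higher (median -4.85). CYP3A4, which oxidises many drugs including sorafenib, had 0.437 and 0.488 CPM in HepG2 and 0 and 0.0326 CPM in HepG2S3, a ratio of 28.9 (95% exact counting interval 4.84 to 1176). CYP27A1, a sterol hydroxylase of bile acid synthesis, was at 185 and 145 CPM against 0.0625 and 0.163 CPM (-10.79 ± 0.36). SULT2A1, a steroid sulfotransferase, was at 216 and 106 CPM against 0.219 and 0.359 CPM (-9.43 ± 0.56). Solute carriers of the liver had 10 of 13 called lower and SLCO1B3 higher (median -8.17, or -5.05 with genes at their bound).

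Urea cycle and amino acid genes held an exception to the fall of liver genes. Of 20 tested, 15 were called lower and 2 higher (CPS1 and PRODH), with a median of -3.22, and 4 were called higher without HepG2B. CPS1, the mitochondrial enzyme at the entry of the urea cycle, was at 61.8 and 42.9 CPM in HepG2 and at 1471 and 1547 CPM in HepG2S3 (4.53 ± 0.24, edgeR adjusted p = 0.00011). ASS1, the next but one enzyme of the cycle, was at 154 and 191 CPM against 255 and 236 CPM and was not called (0.20 ± 0.15). GLUL, the gene of glutamine synthetase, was at 529 and 370.2 CPM against 4.56 and 4.63 CPM (-6.93 ± 0.26). ARG1, the last enzyme of the cycle, was low in both lines, and its call was lost without either HepG2S3 library and with DESeq2.

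Genes of the fetal liver and of liver cancer fell too, with 10 of 15 tested called lower, H19 higher and 4 not called (median -4.70). GPC3, a proteoglycan used as a liver cancer marker, was at 4346 and 3688 CPM in HepG2 and 1.41 and 2.97 CPM in HepG2S3 (-11.16 ± 0.49). IGF2, a fetal growth factor, was at 1179.5 and 1875 CPM against 2.34 and 2.09 CPM (-9.74 ± 0.36). H19, the imprinted RNA next to IGF2, went the other way, from 0.791 and 0.172 CPM to 149.8 and 140.3 CPM (7.89 ± 0.56). The imprinted inhibitor of the cell cycle CDKN1C had a single count in each HepG2 library and 237 and 240.1 CPM in HepG2S3, a ratio of 8527 (95% exact counting interval 2360.2 to 70420).

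**Figure D2:**
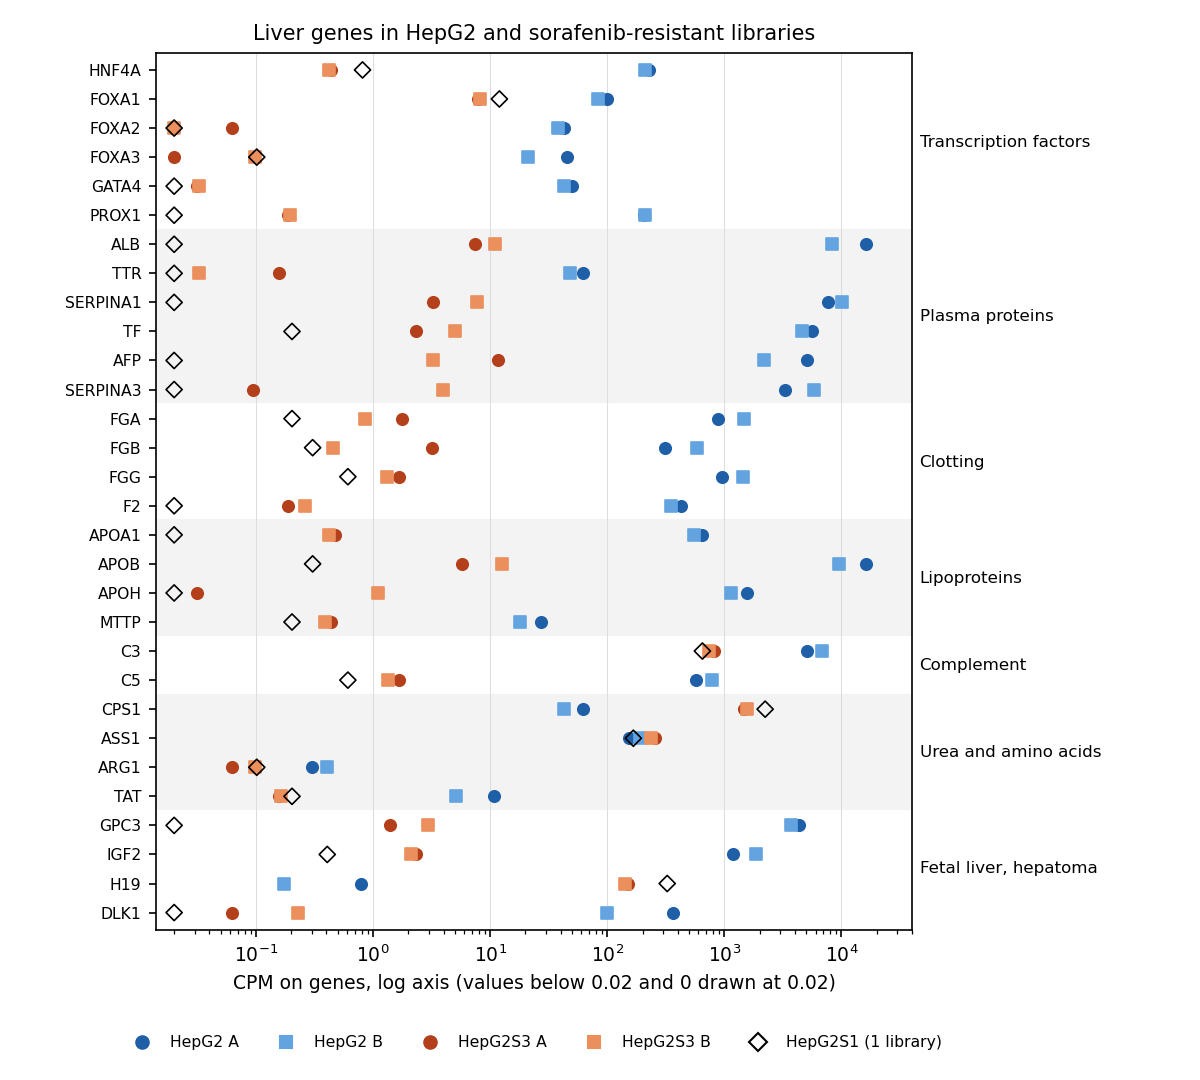
CPM of liver genes in each library on a log axis, with HepG2 in blue, HepG2S3 in orange and HepG2S1 (1 library) as open diamonds. The 2 HepG2 libraries sit to the right of the others, ALB at 16105 and 8261 CPM against 7.44 and 10.9 CPM, except for CPS1 and H19, which lie the other way, and ASS1, where the libraries lie close together.

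Promoter sequences of the genes that fell were read from RefSeq on GRCh38.p14, from 250 bases before to 50 after each start. Of the 142 liver genes called lower, 105 had a promoter in the table of 27305. The HNF4 letters CAAAGTNCA or, on the other strand, TGNACTTTG were in 6.67% of them and in 1.07% of promoters of all genes. The letters TTGCNNAA or TTNNGCAA, read by C/EBP factors, were in 19% against 10.6%, but also in 23.1% of the 26 promoters of other-lineage genes called higher and in 3 of 8 HOX promoters called higher. They are thus not particular to liver genes that fell. The liver promoters held the FOXA letters TGTTTNC or GNAAACA in 23.8% against 18.1% of all. The AP-1 letters TGANTCA, which are their own reverse, were in 7.62% against 7.76%, and the TEAD letters GGAATG or CATTCC in 13.3% against 14%. None of these strings contains another. Of 16 key liver genes called lower that had a promoter, 1 held the C/EBP letters within the 120 bases before the start, FGB (chr4:154562860-154562979, + strand). Its 120 bases are shown 5′ to 3′ with these letters in capitals, which begin at position -101 from the start.
FGB: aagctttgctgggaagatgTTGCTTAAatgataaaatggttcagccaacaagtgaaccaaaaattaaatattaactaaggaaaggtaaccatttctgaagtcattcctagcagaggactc
A match of letters is a description and does not show binding.

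Liver promoters also held few CG pairs, the places where DNA methylation can act, with a median of 6 in 300 bases against 14 for promoters of all genes. This did not go with the direction of change, since genes called lower and genes called higher, over all genes, both had a median of 25, and other-lineage genes called higher had 13. The 120 bases before the start of 3 liver genes called lower are shown 5′ to 3′ on the strand of the gene, with each CG in capitals, beside those of LDHB, a lactate dehydrogenase subunit, and GSTP1, a glutathione transferase, both described further on, which went from near 0 to high levels. They lie at chr4:73404167-73404286 (+ strand, ALB), chr11:46719093-46719212 (+ strand, F2), chr17:66229416-66229535 (- strand, APOH), chr12:21657843-21657962 (- strand, LDHB) and chr11:67583692-67583811 (+ strand, GSTP1). These 5 were chosen after their values were seen, and stand for themselves rather than for genes that fell or rose.
ALB: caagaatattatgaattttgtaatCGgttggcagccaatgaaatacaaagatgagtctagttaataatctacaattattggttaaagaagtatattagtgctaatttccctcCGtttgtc
F2: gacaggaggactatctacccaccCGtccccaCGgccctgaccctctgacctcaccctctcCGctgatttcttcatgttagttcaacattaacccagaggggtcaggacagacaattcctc
APOH: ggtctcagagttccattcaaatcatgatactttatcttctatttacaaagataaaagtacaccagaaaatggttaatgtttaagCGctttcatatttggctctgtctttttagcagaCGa
LDHB: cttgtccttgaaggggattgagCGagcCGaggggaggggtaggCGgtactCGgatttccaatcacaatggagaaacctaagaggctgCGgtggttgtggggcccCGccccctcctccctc
GSTP1: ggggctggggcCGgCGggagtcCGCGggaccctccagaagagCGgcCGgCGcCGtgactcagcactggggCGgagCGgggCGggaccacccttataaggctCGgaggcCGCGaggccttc
ALB held 2 CG pairs, F2 3 and APOH 2 in these bases, against 6 in LDHB and 14 in GSTP1. Methylation was not measured in these files.

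Of 86 tested genes of other lineages, 52 were called higher in HepG2S3, 27 lower and 7 were not called, and the direction differed between lineages. For 19 of the 86 the direction was fixed by the filter, since they had no count in 1 of the lines. KRT7, a keratin of bile duct and other simple epithelia, was at 0.628 and 1.43 CPM in HepG2 and at 2739 and 3086 CPM in HepG2S3 (11.15 ± 0.46, edgeR adjusted p = 5.99e-05). MUC1, a mucin of glandular cells, had a single count in HepG2 and 21.9 and 23.9 CPM in HepG2S3. The other tested markers of bile duct cells and progenitors went down, so that of 8 tested 2 were called higher and 6 lower (median -2.02). SOX9, a progenitor factor, was at 234 and 261 CPM in HepG2 and 0.844 and 0.653 CPM in HepG2S3 (-8.68 ± 0.21). Of the 3 markers that define bile duct cells, KRT7 was thus higher and SOX9 and SPP1 were lower.

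Markers of stellate cells and fibroblasts had 9 of 12 tested called higher and 2 lower (median 5.41, or 3.93 with genes at their bound), and 4 were called lower without HepG2B. The median was 1.90 without either HepG2S3 library and 1.52 with no filter on low counts. Of the 12 tested, 2 had no count in 1 of the lines and passed the filter through the other, so their direction was fixed by it. Of the 20 listed markers, 8 were under the filter, with PDGFRA, POSTN, DES and LRAT among them. DCN, the matrix proteoglycan decorin, had a single count in HepG2 and 291 and 398 CPM in HepG2S3, a ratio of 24556 (95% exact counting interval 4407 to 969970). FAP, a surface protease of activated fibroblasts, had no count in HepG2 and 12.8 and 13.7 CPM in HepG2S3, at least 315-fold higher. S100A4, a calcium-binding protein of motile cells, was at 6.66 and 3.13 CPM against 415 and 455 CPM (6.15 ± 0.42). ACTA2, the smooth muscle actin that marks activated stellate cells, did not share this rise, with 15.8 and 27.8 CPM in HepG2 and 9.97 and 9.76 CPM in HepG2S3 (-1.46 ± 0.29). PDGFRB, a receptor of stellate cells, was at 13.9 and 2.24 CPM against 7.69 and 6.07 CPM and was not called, but was called higher without HepG2A (1.31) and lower without HepG2B (-1.35).

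Several keratins of other epithelia were higher, but not KRT20. Of 12 tested markers of stratified and glandular epithelia 10 were called higher and 2 lower (KRT20 and PAX8), with a median of 4.62. Among those higher, TP63, SFN, GATA3 and LYPD3 are no keratins. Of the 12, 3 had no count in 1 of the lines and passed the filter through the other, so their direction was fixed by it. KRT17 was at 1.17 and 1.38 CPM in HepG2 and 108 and 66.7 CPM in HepG2S3 (5.78 ± 0.33). KRT16 had 0 and 0.0861 CPM against 39.1 and 31.1 CPM, and KRT6A, with no count in HepG2, 17.3 and 8.68 CPM, at least 312-fold higher. These 3 keratins are known from activated and squamous epithelium. The defining basal markers were low, with KRT5 at 1.84 and 1.6 CPM, TP63 at 0.469 and 0.49 CPM and KRT14 at 0.0937 and 0.228 CPM in HepG2S3.

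The remaining lineages gave few tested genes. Of 15 matched endothelial markers 6 were tested, and all 6 were called lower (median -5.23). PROX1, described above as a liver factor, is 1 of them. VWF, made by endothelium, was at 0.955 and 1.18 CPM in HepG2 against 0 and 0.0653 CPM. It passed the filter on low counts through HepG2, as did 1 marker without a count in HepG2S3, so their direction was fixed by it. The 6 calls are thus not read as a result about endothelium. Blood cell markers had 2 of 9 called higher and 5 lower (median -2.34), 4 higher without HepG2A, and 1 higher and 3 lower without HepG2S3A. PTPRC, the common leukocyte antigen, and CD3E, of T cells, were at or under 0.0326 CPM in these 4 libraries, so these leukocyte markers were near 0, while CD68, of macrophage lysosomes, was at 43.9 and 41.3 CPM against 154 and 133 CPM (1.44 ± 0.14). LYZ, the gene of lysozyme, fell from 1987 and 1118 CPM to 0.531 and 1.83 CPM (-10.69 ± 0.72). Neural markers had 3 of 7 called higher and 2 lower (median 0.19). L1CAM, an adhesion molecule of neurons that tumours also carry, rose from 38.3 and 91.3 CPM to 507 and 479.8 CPM (2.62 ± 0.42), while NES, of neural progenitors, fell from 97.8 and 74.0 CPM to 5.12 and 4.57 CPM (-4.46 ± 0.22). SOX10 had 2 counts in HepG2 and 1 in HepG2S3.

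HOX genes, which encode the factors that give cells of the body axis and limbs their position, went mostly up. Of 28 tested, 22 were called higher and 4 lower (HOXA3, HOXA4, HOXA5 and HOXD1), with a median of 6.21, or 5.15 with genes at their bound. Of these, 10 had no count in 1 of the lines and passed the filter on low counts through the other, so their direction was fixed by it. HOXC10 had a single count in HepG2 and 44.3 and 43.1 CPM in HepG2S3, a ratio of 3128 (95% exact counting interval 561 to 123580). The tested genes of the HOXB cluster had no count in HepG2 apart from 1 of HOXB8. HOXB6 reached 12.9 and 11.8 CPM in HepG2S3, at least 295-fold higher, HOXB3 11.2 and 11.4 CPM, at least 268-fold, and HOXB13, at the far end of the cluster, 6.72 and 8.39 CPM. In the HOXA cluster the members went in opposite directions along the chromosome, and the following were chosen after their values were seen. HOXA3 was at 10.7 and 10.6 CPM in HepG2 and 0.125 and 0.196 CPM in HepG2S3 (-6.33 ± 0.31). HOXA13, at the other end, was at 0.3 and 0.89 CPM in HepG2 and 69.3 and 70.0 CPM in HepG2S3 (6.56 ± 0.45). HOXA11, HOXA10, HOXA9 and HOXA7 were called higher, HOXA4 and HOXA5 lower, and HOXA6 was not called.

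**Figure D3:**
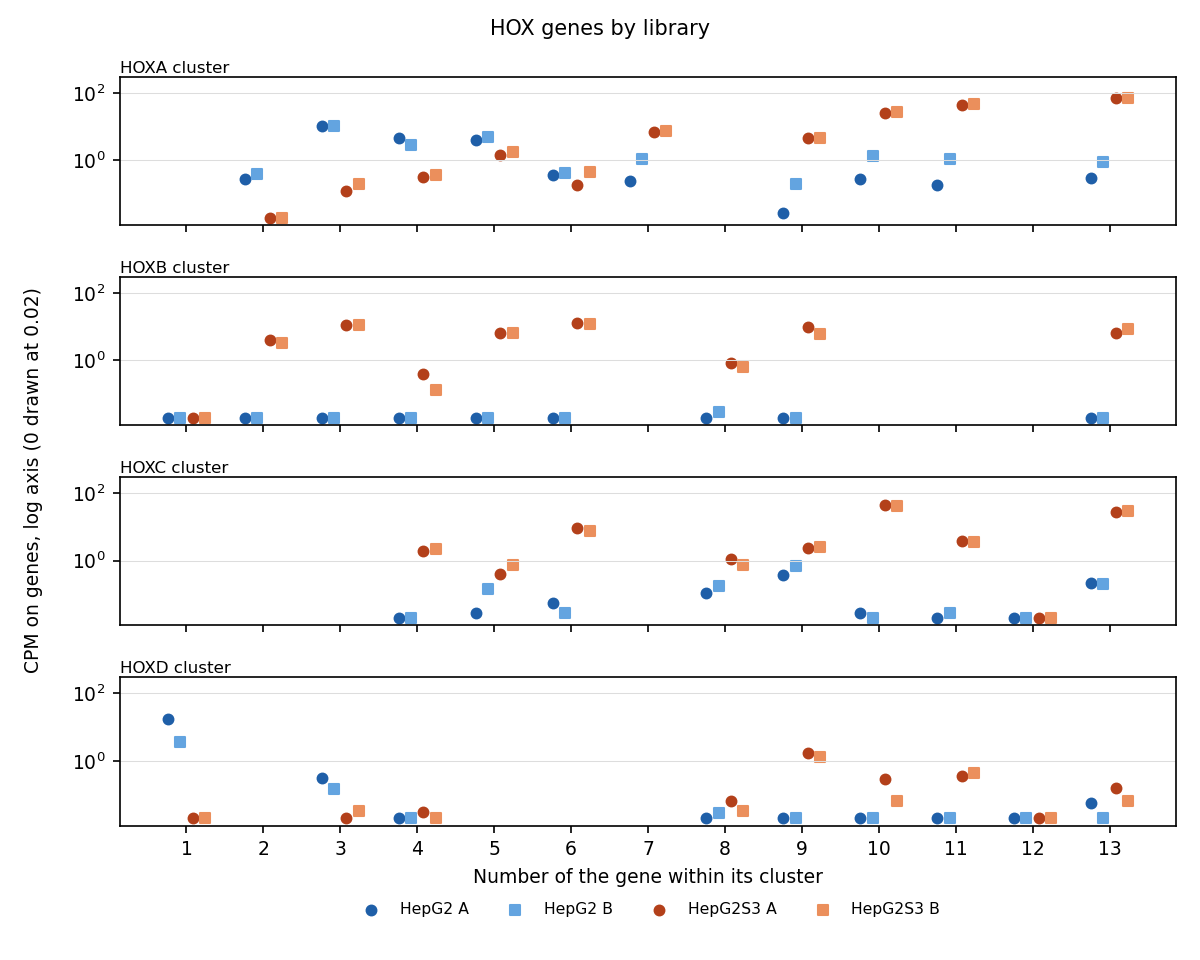
CPM of the HOX genes in each library by cluster and by number within the cluster, on a log axis with 0 drawn at the lowest level. In the HOXA cluster HepG2 is higher for HOXA3 (10.7 and 10.6 CPM) and HepG2S3 for HOXA13 (69.3 and 70.0 CPM), while the HOXB and HOXC genes with signal are higher in HepG2S3.

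Cancer-testis genes, which are normally active in germ cells, passed the filter on low counts for 4 of 23 matched members, MAGEA1, MAGEA12, MAGEB2 and PRAME. These 4 were near 0 in HepG2 and passed through HepG2S3, so that they were called higher follows from the filter. With no filter, 13 could be fitted and 5 were called higher. MAGEA1 had 0 and 0.0287 CPM in HepG2 and 123 and 146 CPM in HepG2S3. MAGEB2 had no count in HepG2 and 83.6 and 99.0 CPM in HepG2S3, at least 2172-fold higher. PRAME rose from 0.546 and 0.0574 CPM to 32.2 and 34.4 CPM (6.43 ± 0.66). The MAGEA genes are near-identical, so reads may be split among them, and 19 members of the list, MAGEA3 and MAGEA4 among them, stayed under the filter.

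**Figure D4:**
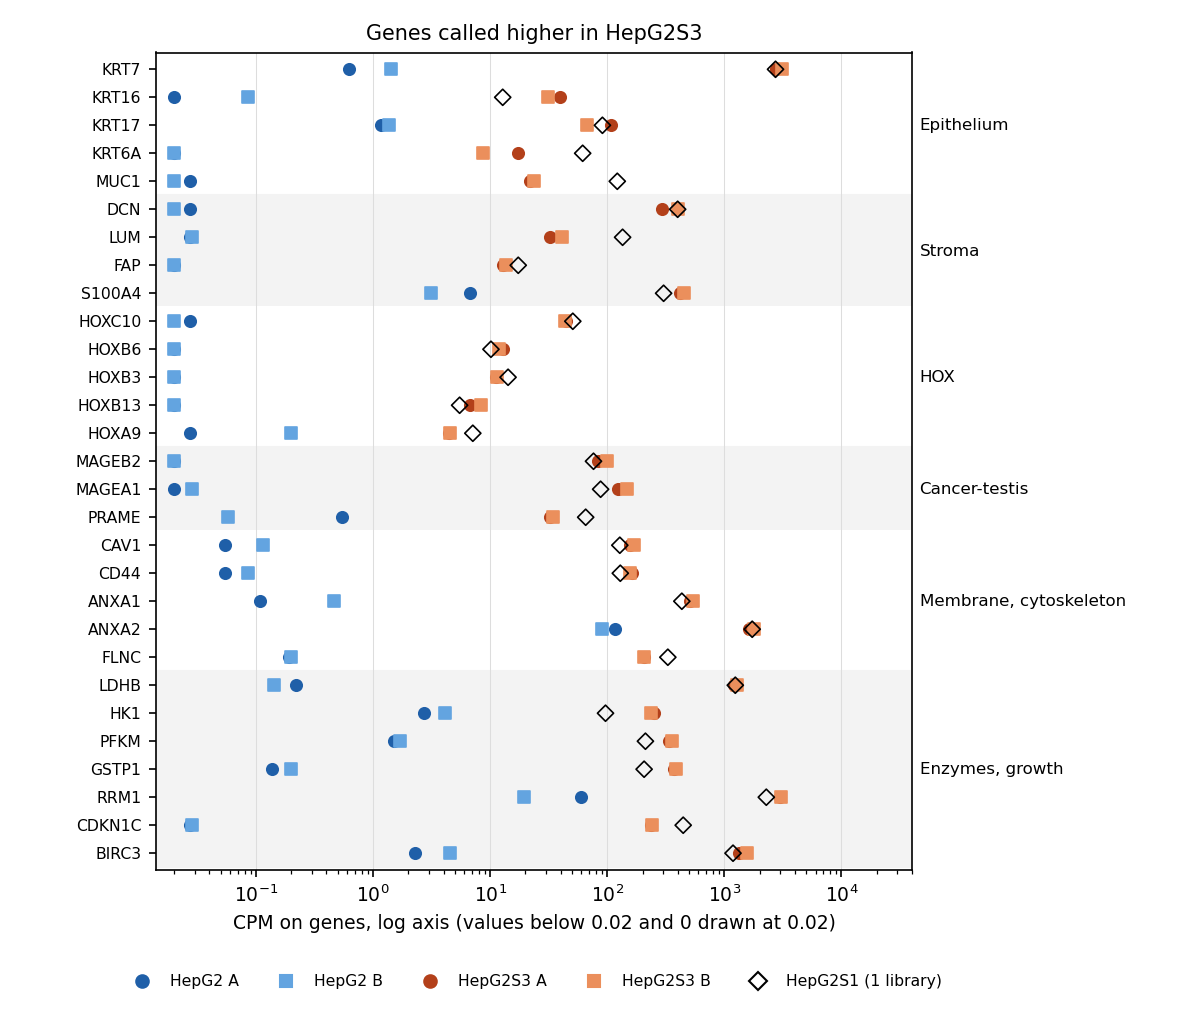
CPM on a log axis of genes called higher in HepG2S3, by library, with values below the lowest level drawn there. The HepG2 libraries lie at or near the left edge for KRT16, FAP, HOXB6 and MAGEB2, and the HepG2S3 and HepG2S1 libraries lie to the right, KRT7 at 2739, 3086 and 2733 CPM.

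Across the whole table, the protein-coding genes with the largest rise included PRSS21, a membrane serine protease of testis, at 142 and 143 CPM in HepG2S3 and no count in HepG2 (at least 3386-fold). GNG11, a G protein subunit, had 68.2 and 78.1 CPM (at least 1741-fold), GAS1, a co-receptor of hedgehog signalling, 68.7 and 76.0 CPM (at least 1722-fold), and ACKR3, a scavenger receptor of chemokines, 72.4 and 65.5 CPM (at least 1644-fold), again with no count in HepG2. The protocadherin PCDH7 was at least 1326-fold higher and the secreted protein NELL2 at least 1135-fold. Among the largest falls were SERPINA4, a plasma inhibitor of kallikrein (at least 704-fold lower), and DIAPH2, a formin (at least 532-fold), which had no count in HepG2S3. The cyclin CCND2, at 8.41 and 29.8 CPM in HepG2, was at least 393-fold lower. NR5A1, a factor of steroid-making tissue, was at 79.1 and 59.9 CPM in HepG2 and 0 and 0.0326 CPM in HepG2S3. RRM1, the large subunit of ribonucleotide reductase, was among the most abundant genes that rose, from 59.1 and 19.6 CPM to 2981 and 3050.2 CPM (5.94 ± 0.62). Between RRM1 and RRM2, which form this enzyme together, RRM2 was not called.

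At the cell surface, tight junction and desmosome genes were mostly lower, with 22 of 33 called lower and 8 higher (median -1.50), and 3 higher without either HepG2S3 library. The claudins, which seal tight junctions, did not move together. CLDN1 was at 108 and 115 CPM in HepG2 and 23.3 and 20.1 CPM in HepG2S3 (-2.67 ± 0.15). CLDN6, a fetal claudin, was at 13.1 and 12.1 CPM against 0.0312 and 0.0326 CPM. CLDN7 rose from 0.0546 and 0.0287 CPM to 34.7 and 26.0 CPM, and SPINT2, an inhibitor of surface proteases, from 0.382 and 0.603 CPM to 44.8 and 36.4 CPM (6.05 ± 0.29). DSG2, a desmosomal cadherin, was at 308 and 306 CPM against 405 and 424 CPM and was not called (0.12 ± 0.12).

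Integrins and laminins, which bind cells to the basement membrane, had 10 of 27 called higher and 11 lower (median -0.15, or 0.16 with total count scaling), with 7 lower without HepG2S3B. With all 4 libraries, 37.0% were higher, against 31.4% of all genes tested, and 40.7% lower, against 32.1%. The fibronectin receptor subunit ITGA5 rose from 2.89 and 10.0 CPM to 441 and 411 CPM (5.74 ± 0.62), and ITGA3, a laminin receptor subunit, from 10.3 and 37.6 CPM to 396 and 362 CPM (3.67 ± 0.62). The collagen receptor subunit ITGA2 fell from 308 and 303 CPM to 17.3 and 21.3 CPM (-4.30 ± 0.17), and ITGA6 from 311 and 396 CPM to 99.6 and 99.8 CPM (-2.14 ± 0.16). The common partner ITGB1 was at 936 and 1586 CPM against 1446 and 1379 CPM and was not called. Matricellular and matrix-modifying genes had 11 of 34 called higher and 14 lower (median -0.16, or 0.16 with total count scaling). That is 32.4% higher, against 31.4% of all genes tested, and 41.2% lower, against 32.1%. FBN2, a microfibril protein, rose from 0.109 and 0.172 CPM to 425 and 476 CPM (11.30 ± 0.25), and LOX, which cross-links collagen, from 5.24 and 7.46 CPM to 197 and 182 CPM (4.58 ± 0.22). LOXL4, of the same enzyme family, fell from 89.8 and 128 CPM to 0.281 and 0.163 CPM (-9.22 ± 0.35).

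The list of contractile cytoskeleton and caveolae genes also holds annexins, galectins, S100 proteins, LMNA, TUBB6 and CD44. Of 32 tested, 22 were called higher and 4 lower (median 1.56, or 1.41 without HepG2B). Those lower were CAVIN2, MYH9, CNN3 and ZYX, and ACTN1, CNN2, CALD1 and TLN1 were among those not called. The list thus did not rise as 1 structure. The summed level of the list was 5756 and 5674 CPM in HepG2 and 14889 and 15509 CPM in HepG2S3. CAV1, the coat protein of caveolae, was at 0.0546 and 0.115 CPM in HepG2 and 157 and 170.3 CPM in HepG2S3 (10.56 ± 0.27). CD44, the hyaluronan receptor, was at 0.0546 and 0.0861 CPM against 163 and 157 CPM (10.78 ± 0.23), and ANXA1, a membrane-binding protein, at 0.109 and 0.459 CPM against 512 and 542 CPM (10.54 ± 0.48). FLNC, an actin cross-linker, was at 0.191 and 0.201 CPM against 204 and 207 CPM (9.70 ± 0.19). These genes were close to undetected in HepG2. CNN3, an actin-binding calponin, went the other way, from 188 and 159 CPM to 0.219 and 0.131 CPM (-10.23 ± 0.28).

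Of the kinases that sorafenib inhibits, 15 were listed and 8 tested, with 4 called higher and 2 lower (median 0.20). Without HepG2B 4 were called lower, without HepG2S3A 2 higher and 1 lower, and without HepG2S3B 1 lower. KDR, the main VEGF receptor, had no count in HepG2 and 1 in HepG2S3. Of the Raf kinases, BRAF was at 19.1 and 22.6 CPM in HepG2 and 17.4 and 19.3 CPM in HepG2S3 (-0.50 ± 0.17, edgeR adjusted p = 0.0438), and ARAF at 34.6 and 34.9 CPM against 91.6 and 88.1 CPM (1.05 ± 0.12). The BRAF levels of both lines overlapped in CPM, and its call was lost without either HepG2S3 library, under total count scaling and with the replicate block. FGFR1, also inhibited by sorafenib, fell from 145 and 179.5 CPM to 19.3 and 17.4 CPM (-3.46 ± 0.17).

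Among other receptor kinases and their ligands 12 of 36 were called higher and 20 lower (median -1.03). EGFR was at 24.2 and 25.1 CPM in HepG2 and 424 and 466 CPM in HepG2S3 (3.86 ± 0.14), and AXL, the receptor of GAS6, at 20.5 and 21.0 CPM against 371 and 365 CPM (3.83 ± 0.13). MERTK, a receptor of the AXL family, fell from 149 and 135 CPM to 0.437 and 0.457 CPM (-8.62 ± 0.19). The growth factor FGF2 rose from 0.355 and 0.23 CPM to 52.4 and 61.0 CPM (7.26 ± 0.27). MET, the receptor of hepatocyte growth factor, was at 134 and 147 CPM against 280.1 and 293 CPM (0.71 ± 0.12), a call lost without either HepG2S3 library. IGFBP1, an insulin-like growth factor binding protein made by liver, fell from 874 and 495 CPM to 0.562 and 1.27 CPM (-9.86 ± 0.56).

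Genes that ERK signalling induces were lower. Of 22 tested, 14 were called lower and 1 higher (JUNB), with a median of -1.40. DUSP6, a phosphatase that acts back on ERK, was at 139 and 100.2 CPM in HepG2 and 3.06 and 4.31 CPM in HepG2S3 (-5.34 ± 0.28), and SPRY4, a feedback inhibitor, at 114 and 99.9 CPM against 0.344 and 0.392 CPM (-8.48 ± 0.21). EGR1, an immediate early factor, was at 389.6 and 198 CPM against 3 and 10.2 CPM (-5.80 ± 0.72). SPRY2, of the same family as SPRY4, was at 18.4 and 14.5 CPM against 18.4 and 16.1 CPM and was not called. The feedback inhibitor of EGFR, ERRFI1, fell from 911 and 1204 CPM to 96.9 and 88.8 CPM (-3.82 ± 0.20).

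Wnt target genes were mostly lower, with 16 of 23 called lower and 6 higher (median -3.94). HepG2 is known for an activating deletion in beta-catenin, the effector of this pathway. AXIN2, a negative feedback target, was at 181 and 181 CPM in HepG2 and 0.156 and 0.359 CPM in HepG2S3 (-9.76 ± 0.32, edgeR adjusted p = 3.83e-05). NKD1, another feedback inhibitor, was at 437 and 439 CPM against 0.0625 and 0.392 CPM (-11.22 ± 0.51). LGR5, the R-spondin receptor, had 82.9 and 75.8 CPM in HepG2 and a single count in HepG2S3, a ratio of 4975 (95% exact counting interval 893 to 196540). SP5, a transcription factor induced by the pathway, was at 133 and 101 CPM against 0.281 and 0.555 CPM (-8.44 ± 0.35). The 6 genes called higher were LEF1, DKK1, WNT5B and the receptors FZD2, FZD7 and FZD8.

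TGF-beta and BMP genes had 10 of 31 called higher and 14 lower (median -0.28, or 0.03 with total count scaling). That is 32.3% higher, against 31.4% of all genes tested, and 45.2% lower, against 32.1%. Among the ligands, BMP2 rose from 0.109 and 0.258 CPM to 84.8 and 82.8 CPM (8.50 ± 0.32) and BMP4 fell from 142 and 89.2 CPM to 2.03 and 1.7 CPM (-6.26 ± 0.33). TGFBR2, the receptor that binds TGF-beta, fell from 624 and 581 CPM to 70.1 and 57.7 CPM (-3.55 ± 0.17). YAP and TEAD targets had 12 of 26 called higher and 9 lower (median 0.14). CCN2, a classical target, fell from 529 and 544 CPM to 4.84 and 5.68 CPM (-6.99 ± 0.17), and MYOF, a membrane repair protein on the same list, rose from 5.9 and 9.84 CPM to 826 and 892 CPM (6.46 ± 0.31). CCN1 was at 109 and 119 CPM against 66.7 and 92.6 CPM (-0.83 ± 0.19), and its call was lost without HepG2S3A and under total count scaling.

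Drug efflux pumps were mostly lower, with 8 of 13 called lower and 3 higher (ABCC4, ABCA2 and ABCA3; median -1.51). ABCB1, the multidrug pump P-glycoprotein, was at 124 and 195 CPM in HepG2 and 0.281 and 0.359 CPM in HepG2S3 (-9.26 ± 0.36). ABCC2, which exports conjugates into bile, was at 559 and 452 CPM against 44.8 and 35.4 CPM (-3.97 ± 0.21). ABCG2, the breast cancer resistance protein, was at 7.21 and 1.66 CPM against 15.7 and 16.5 CPM and was not called (1.54 ± 0.64).

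**Figure D5:**
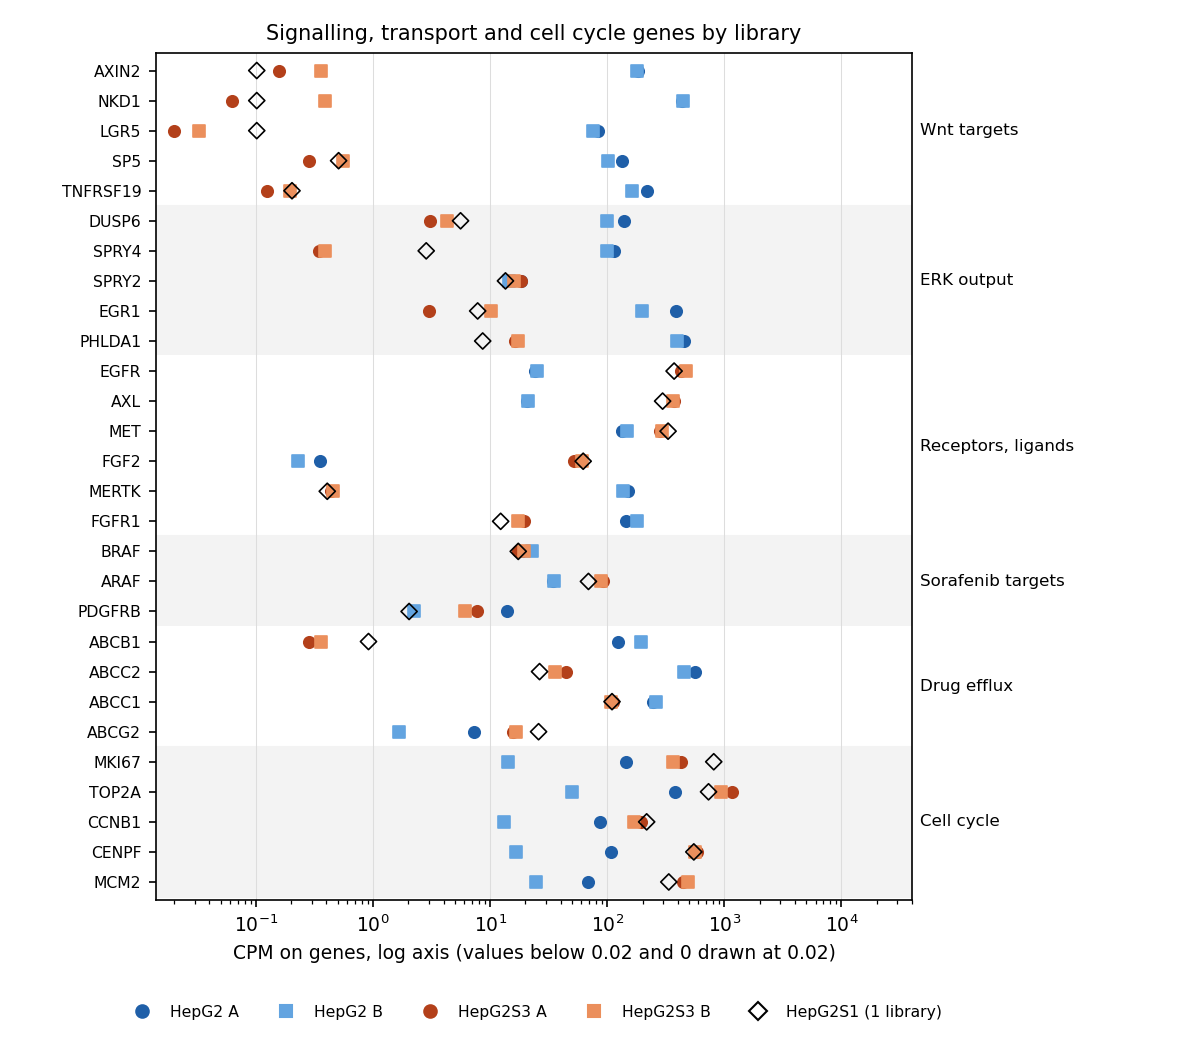
CPM on a log axis of signalling, transport and cell cycle genes in each library. Wnt targets such as AXIN2 (181 and 181 CPM against 0.156 and 0.359 CPM) and ERK output genes other than SPRY2 lie higher in HepG2, EGFR, AXL and FGF2 lie higher in HepG2S3, and the cell cycle genes show HepG2B apart from HepG2A (MKI67 14.2 against 145 CPM).

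Inhibition of cystine uptake has been described for sorafenib, so genes of ferroptosis, a death by lipid peroxidation, and of iron were listed. Of 21 tested, 12 were called lower and 4 higher (median -0.86). SLC7A11, the cystine carrier, was at 206 and 406 CPM in HepG2 and 97.8 and 97.4 CPM in HepG2S3 (-1.96 ± 0.33). GPX4, which detoxifies lipid peroxides, was at 162 and 167 CPM against 205 and 216 CPM and was not called (0.04 ± 0.12). SLC40A1, the iron exporter, fell from 110.0 and 139.8 CPM to 0.0937 and 0.163 CPM (-10.20 ± 0.30), and FTL, ferritin light chain, from 5969.9 and 5845 CPM to 1026 and 1112 CPM (-2.78 ± 0.18). NRF2 targets and glutathione genes had 6 of 26 called higher and 14 lower (median -0.70). GSTP1, a glutathione transferase low in hepatocytes, rose from 0.136 and 0.201 CPM to 369 and 386 CPM (10.79 ± 0.23). NQO1, a quinone reductase, fell from 757 and 593 CPM to 315 and 348 CPM (-1.34 ± 0.18), and GPX2 from 278 and 245 CPM to 0 and 0.163 CPM (-11.92 ± 0.57).

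Glycolysis and hypoxia genes went in both directions. Of 37 genes tested, 17 were called higher and 10 lower (median 0.36), with 6 lower under total count scaling and without HepG2S3A, and 5 without HepG2S3B. LDHB, a lactate dehydrogenase subunit, was at 0.218 and 0.143 CPM in HepG2 and 1214 and 1269.9 CPM in HepG2S3 (12.40 ± 0.26, edgeR adjusted p = 2.59e-05), while its partner LDHA was not called. PFKM, the muscle form of phosphofructokinase, was at 1.5 and 1.69 CPM against 339 and 356 CPM (7.45 ± 0.17). HK1 rose from 2.73 and 4.13 CPM to 250.3 and 238 CPM (5.84 ± 0.25), while HK2, another hexokinase, fell from 359.6 and 265 CPM to 148 and 146 CPM (-1.40 ± 0.19). The glucose transporter SLC2A1 fell from 1225 and 1233 CPM to 65.3 and 69.2 CPM (-4.51 ± 0.15), and the liver pyruvate kinase PKLR from 12.01 and 12.4 CPM to 0.0312 and 0 CPM. The hypoxia marker CA9 was at 1.66 and 0.459 CPM against 0.844 and 1.11 CPM and was not called.

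Genes of gluconeogenesis and glycogen had 4 of 13 called higher (PYGL, GBE1, UGP2 and PPP1R3B) and 5 lower (median -0.03, or 0.29 with total count scaling). These shares, 30.8% and 38.5%, were near the 31.4% and 32.1% of all genes tested. PCK1, the key enzyme of gluconeogenesis, was low in HepG2 at 1.61 and 0.918 CPM and had no count in HepG2S3, at least 26.6-fold lower. Its mitochondrial form PCK2 fell from 392 and 464 CPM to 89.6 and 72.6 CPM (-2.71 ± 0.18), and GBE1, the glycogen branching enzyme, rose from 34.1 and 41.9 CPM to 130.5 and 119.9 CPM (1.41 ± 0.15).

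Lipid synthesis was lower. Of 24 genes of cholesterol synthesis and uptake 14 were called lower and 3 higher (median -0.92), with 5 higher without HepG2A. SQLE, an enzyme of sterol synthesis, fell from 259 and 192 CPM to 21.0 and 26.7 CPM (-3.56 ± 0.23). INSIG1, an inhibitor of that synthesis, rose from 0.3 and 0.23 CPM to 61.8 and 73.2 CPM (7.66 ± 0.25). Fatty acid genes had 20 of 33 called lower and 5 higher (median -1.42), with 9 higher without HepG2A and 3 without either HepG2S3 library. FASN, the fatty acid synthase, fell from 822 and 721 CPM to 158 and 184 CPM (-2.49 ± 0.16), and FABP1, the liver fatty acid binding protein, from 197 and 68.6 CPM to 0.281 and 0.457 CPM (-8.80 ± 0.75). CPT1A, which takes fatty acids into mitochondria, was at 74.1 and 165 CPM against 116 and 134 CPM and was not called, but was called lower without HepG2A (-0.71) and higher without HepG2B (0.42).

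Genes encoded by the mitochondrial genome had 11 of 13 called lower (median -1.11), with 6 lower without HepG2S3B. Their summed level was 48736 and 49713 CPM in HepG2 and 36236 and 25744 CPM in HepG2S3. MT-CO1, a subunit of cytochrome oxidase, was at 11306 and 12510 CPM against 8181 and 5613 CPM (-1.10 ± 0.27), a call lost without HepG2S3B. Serine and one-carbon genes had 4 of 16 called higher and 6 lower (median -0.47), with 7 higher without HepG2B and 3 lower without HepG2S3B. With all 4 libraries, 25% were higher, against 31.4% of all genes tested, and 37.5% lower, against 32.1%. TYMS, which makes thymidylate, rose from 79.9 and 55.9 CPM to 339 and 369 CPM (2.06 ± 0.21), and GLDC, of glycine cleavage, fell from 104 and 62.4 CPM to 0.5 and 0.587 CPM (-7.57 ± 0.38). PHGDH, the first enzyme of serine synthesis, was at 136 and 266 CPM against 324 and 308 CPM and was not called.

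Of 35 cell cycle genes about as many were called higher in HepG2S3 as were not called, and the 2 HepG2 libraries were far apart. The summed level of 35 genes was 2659 CPM in HepG2A and 791 CPM in HepG2B, and 7827 and 7544 CPM in HepG2S3. MKI67, the proliferation antigen, was at 145 and 14.2 CPM in HepG2 and 424 and 367 CPM in HepG2S3 and was not called (2.00 ± 0.98). MCM2, a subunit of the replication helicase, was at 68.5 and 24.8 CPM against 444 and 487 CPM (edgeR adjusted p = 0.00408). Of the list, 17 were called higher (median 2.00). Leaving out HepG2A raised this to 34 (median 3.52), leaving out HepG2B to 30 with 3 lower (median 1.25), and the replicate block to 32.

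Regulators of G1 had 7 of 16 called higher and 5 lower (median 0.31), with 3 lower without either HepG2S3 library. With all 4 libraries, 43.75% were higher, against 31.4% of all genes tested, and 31.25% lower, against 32.1%. The CDK inhibitor CDKN2A rose from 6.44 and 20.9 CPM to 165 and 195 CPM (3.41 ± 0.56) and CDK2 from 29.9 and 17.3 CPM to 367 and 327 CPM (3.56 ± 0.30). The cyclin CCND1 fell from 450.4 and 431 CPM to 136 and 152 CPM (-1.93 ± 0.13). Of 24 p53 targets, 14 were called lower and 3 higher (median -1.03), with 7 higher without HepG2B and 1 without HepG2S3A. MDM2, the p53 ligase, fell from 237 and 384 CPM to 102 and 106 CPM (-1.90 ± 0.25), and GDF15, a secreted stress factor, from 669 and 578 CPM to 68.3 and 58.4 CPM (-3.61 ± 0.17). CDKN1A, the p21 inhibitor, was at 152 and 332 CPM against 125 and 106 CPM (-1.38 ± 0.37), a call lost without HepG2S3B.

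The BCL2 family, which regulates cell death, had 8 of 15 called lower and 3 higher (median -0.92). BCL2 rose from 1.04 and 0.775 CPM to 23.9 and 25.8 CPM (4.46 ± 0.24). Its relative BCL2L1, which also protects cells, fell from 585 and 683 CPM to 140.0 and 151 CPM (-2.44 ± 0.15), and the death-promoting BMF fell from 34.1 and 80.2 CPM to 2.25 and 1.66 CPM (-5.17 ± 0.51). Genes of the integrated stress and unfolded protein responses had 14 of 24 called lower and 3 higher (median -0.67). Lower were 8 under total count scaling, 9 without HepG2S3A and 8 without HepG2S3B, and higher were 8 without HepG2A and 5 without HepG2B. XBP1 fell from 513 and 452 CPM to 117 and 110.3 CPM (-2.40 ± 0.14), and DDIT4, an inhibitor of mTOR, rose from 149 and 185 CPM to 1363 and 1237 CPM (2.65 ± 0.17).

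Immune genes were called in both directions. Interferon-stimulated genes had 13 of 31 called higher and 12 lower (median -0.19, or 0.13 with total count scaling). That is 41.9% higher, against 31.4% of all genes tested, and 38.7% lower, against 32.1%, so calls in both directions are what all genes show too. IFIT2, an antiviral effector, rose from 0.328 and 0.402 CPM to 19.2 and 17.3 CPM (5.32 ± 0.25), and MX2 fell from 39.0 and 43.9 CPM to 0.219 and 0.0326 CPM (-8.61 ± 0.48). Genes of MHC class I presentation had 9 of 15 called lower and 2 higher (median -0.91), with 4 higher under total count scaling, 5 without HepG2B and 1 without either HepG2S3 library. B2M, the light chain, rose from 371 and 387 CPM to 1424 and 1287 CPM (1.52 ± 0.14). PSMB8, of the immunoproteasome, fell from 23.2 and 20.7 CPM to 0.281 and 0.163 CPM (-6.91 ± 0.30).

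Inflammatory genes had 11 of 25 called higher and 12 lower (median -0.26, or 0.06 with total count scaling). That is 44% higher, against 31.4% of all genes tested, and 48% lower, against 32.1%. BIRC3, an inhibitor of cell death induced by NF-kappaB, rose from 2.29 and 4.56 CPM to 1343 and 1569 CPM (8.42 ± 0.42, edgeR adjusted p = 8.74e-05). The adhesion molecule ICAM1, another target of this factor, fell from 257 and 329 CPM to 0.125 and 0.653 CPM (-9.87 ± 0.57), and the chemokine CCL20 from 239 and 141 CPM to 0.344 and 0.294 CPM (-9.52 ± 0.42). SAA1, an acute phase protein, had no count in HepG2 and 14.3 and 19.1 CPM in HepG2S3, at least 396-fold higher.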

How the data were processed

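Stranded mRNA libraries of HepG2 (2), HepG2S3 (2) and HepG2S1 (1) were read from the count tables that the authors deposited, whole-number counts of reads per gene without normalization. Reads had been mapped to hg19 with Bowtie and TopHat and counted with HTSeq, per the labels and methods, and versions and the strand setting of HTSeq are not given in the sources used here, so reads of overlapping or antisense genes may be mixed. Of 53515 genes, 45100 (84.3%) were matched by identifier to GENCODE 44 lifted to GRCh37, which hold at least 99.01% of the counts of each library, and unmatched genes, such as HP and PECAM1, were not analysed here.

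Counts of the 4 libraries of HepG2 and HepG2S3 were tested with edgeR 4.0.16 (TMM, filterByExpr, quasi-likelihood F-test, Benjamini-Hochberg) in R 4.3.3. CPM were taken from the total count on genes. The code was also run on simulated counts with few changed genes and a spread that was equal in all libraries and lower than here. That run cannot speak for the scaling or the error rate where most genes differ. Letters A and B named the replicates, while a second label gives both libraries of a line the same number. Nothing says that they are separate cultures, so p-values measure the spread between libraries, which may be technical. An exact permutation test of 2 against 2 cannot go below p = 0.33. A gene without counts in a line was given a bound from 3 counts over its 2 libraries, and intervals of ratios are exact 95% intervals, both for counting error alone. Alternatives were DESeq2 1.42.0, total count scaling, the letters as a block, no filter, a minimum of 1 CPM in 2 libraries, and each library left out in turn.

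The 44 lists, their key genes and the promoter letters were chosen with earlier results of these data known, and some genes are on more than 1 list. Named were the key genes of each list, up to 6 called members with the largest change, the 15 largest changes in each direction among protein-coding genes with at least 10 CPM, and genes past 1000 CPM with an absolute log2 fold change over 3. Genes of the EMT signature were not described, and some genes that meet these rules are not reported here.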

Additional observations from a re-analysis of the deposited data

How the results depend on the processing

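Calls kept their direction under each alternative run, since 0 of the 10744 called genes turned sign. They were called again in the same direction for 9612 genes with total count scaling, 10249 with DESeq2, 10257 with the replicate block, 10205 without a filter, 9402 with a minimum of 1 CPM, and between 7161 and 10535 with a library left out. Calls numbered 6761 higher and 4304 lower with total count scaling, and ranged from 3567 to 6580 higher and from 3737 to 6662 lower with a library left out, the fewest without a HepG2S3 library. With 1 library left in a line, that library is assumed to vary like the other line. Requiring an absolute log2 fold change of at least 1 left 3987 higher and 4029 lower. These totals stayed within 1.5 times of the reported ones. With the letters as a replicate block, 5279 genes were called higher and 5282 lower. The deviations of libraries with the same letter from their group means correlated at 0.011, so the letters share a name and were not treated as pairs, and 32 rather than 17 cell cycle genes were called higher with this block. Of the 360 named genes tested, calls were lost for 7 with total count scaling, 1 with DESeq2, 2 with the block and 14 or 15 without a HepG2S3 library. Without HepG2A, the apolipoprotein, fetal liver, solute carrier and ERK output lists each had 2 rather than 1 gene called higher, and without HepG2S3B the call of ANGPTL4 was lost. With total count scaling, genes that were not called turned sign (CPT1A to 0.063, ITGB1 to 0.164, SHMT2 to 0.29 and SPRY2 to 0.069). With a library left out, the log2 fold change of genes not called with all 4 libraries turned sign in CA9 (-1.103 to 0.769), CPT1A (-0.714 to 0.419), ITGB1 (-0.479 to 0.26), PDGFRB (-1.351 to 1.308), PHGDH (-0.061 to 0.88) and SHMT2 (-0.191 to 0.141), in each case on leaving out a HepG2 library. CPT1A was then called lower without HepG2A and higher without HepG2B, PDGFRB the other way, and CA9, ITGB1 and PHGDH were called in 1 of these fits each. The cause was not tested. Depth limits genes under about 0.05 CPM, which rest on 3 counts or fewer over 2 libraries.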

Other observations

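Calls were not spread evenly over the chromosomes (GRCh37). On chromosome 20, 53 of 428 genes tested were called higher and 279 lower, with a median log2 fold change of -1.10. On chromosome 12, 417 of 811 were called higher and 141 lower (median 0.62), and on chromosome X 270 of 517 were higher and 91 lower (median 0.76). Chromosome 2 had 219 higher and 527 lower of 1104 (median -0.57). In windows of 10 Mb with at least 10 genes tested, the lowest median was -2.83, on chromosome 4 between 60 and 70 Mb (11 genes), followed by -1.63 on chromosome 6 between 160 and 170 Mb (32 genes). The highest was 1.62 on chromosome 5 between 40 and 50 Mb. These are medians of transcript levels, and DNA copy number was not measured in these files.

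HepG2S1, with 1 library and no test, lay near HepG2S3 for many of the genes above. KRT7 was at 2733 CPM, LDHB at 1239 CPM, CPS1 at 2228 CPM and EGFR at 372 CPM. ALB, SERPINA1 and AFP had no count there, which at its depth allows up to 0.305 CPM.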
